A study of Rattus norvegicus with 18 samples.

Results

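The arrays described here compare rat hippocampal neurons carrying MEF2-specific shRNAs after 6 h in 55 mM KCl with the same kind of culture at 0 h of KCl. They were chosen by their titles, which give the shRNA, the hours of KCl and a biological replicate number, and they are 6 of the 18 arrays in the series. Replicates 1 to 3 of each time share numbers, so the 6 arrays form 3 numbered pairs. The other arrays of the series are MEF2 shRNA neurons at 1 h and neurons with control shRNAs at 0, 1 and 6 h, 3 arrays each. Below, RNAi stands for the MEF2 shRNA arm and control for the control shRNA arm.

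Every group, the 0 h groups included, consisted of hippocampal neurons grown in dissociated culture. All of them received a lentivirus carrying shRNAs on day in vitro 3, and all were treated on day in vitro 10. All of them, again including the 0 h groups, first had AP5, a blocker of NMDA-type glutamate receptors, and TTX, a blocker of voltage-gated sodium channels, for 1 h. The RNAi 6 h group then had 55 mM KCl for 6 h and the RNAi 0 h group had none. The 0 h neurons are thus silenced neurons rather than neurons left to fire. Total RNA was hybridized to Affymetrix arrays. The labels call the replicates biological and say nothing further of the cultures they came from, so the p-values measure the spread between these arrays.

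MEF2 proteins are transcription factors that bind DNA in pairs and are held in check by class IIa histone deacetylases. Calcium that enters a depolarized neuron activates kinases and the phosphatase calcineurin, which switch MEF2 from repressing to activating its target genes. MEF2 is one of several such factors: CREB and SRF also respond to calcium, and they start the first wave of transcription, the immediate early genes. Many immediate early genes encode transcription factors, which act with CREB, SRF and MEF2 on a second wave of genes for secreted proteins, synaptic proteins and signalling regulators. In hippocampal neurons MEF2 is known for limiting the number of excitatory synapses. The comparison asks which part of the 6 h response to depolarization is measured when MEF2 is reduced.

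Array values are given as the deposited signal, a linear intensity for 1 probe set, which is a group of short oligonucleotides read as 1 value. Where a gene has several probe sets, the brightest on average stands for it, and other probe sets of a gene described are given where they differ in call. With the mean over all probe sets of a gene in place of the brightest, several changes were smaller, for example 1.87 for Fos, 1.63 for Bdnf, 1.71 for Emp1 and 0.52 for Klf2 at 6 h against 0 h, and the calls of Mef2a, Hdac4, Smad7, Bcl2l11, Kcnq5, Pdk1 and Pfkm were lost. Signals under 72.6, the 20th percentile of the whole table, were raised to that floor before log2 was taken, so changes of dim genes are understated. Of 14218 genes, 10933 were bright enough to test. A gene was called where limma's adjusted p was under 0.05 (Benjamini-Hochberg over the 10933 genes), and log2 changes are given ± their standard error, with n = 3 arrays per group. Signals of different probe sets are not compared with each other.

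The targeted genes were checked first. Mef2a had signals of 451, 561 and 443 on the RNAi 6 h arrays and 595, 620.1 and 596 on the RNAi 0 h arrays, against 1534, 1807 and 1928 on the control 6 h arrays and 2001, 1799.6 and 1739 on the control 0 h arrays. Every RNAi array lay below every control array, and the RNAi mean was 27.6% of control at 6 h and 32.7% at 0 h. Mef2d was at 67.5% of control at 6 h and 69.6% at 0 h, and Mef2c, which is expressed in forebrain neurons beside both, was at 81.5% and 88.9%. The size of the reduction depended on the probe set. The 3 other probe sets of Mef2a were at 29.3%, 39.3% and 66.1% of control at 6 h, that of Mef2c at 80% and that of Mef2d at 94.4%. The knockdown was therefore partial in these RNA measurements, and protein was not measured.

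The cultures held more than neurons. Markers of 6 cell types were summed for each array. All 16 neuronal and all 11 astrocyte markers were above the floor in each of the 4 groups at 0 h and 6 h. The neuronal sum was 78317 to 86295 on the RNAi 6 h arrays and 81855 to 90572 on the RNAi 0 h arrays, and the astrocyte sum was 77807 to 89126 and 78174 to 89494 in the same order of groups, so the ranges overlapped for both types. Among the other lists, the myelin genes Mobp and Mog, the leukocyte gene Ptprc and the endothelial gene Pecam1 lay at the floor in all 4 groups. The summed signal of 11 endothelial and fibroblast markers was the one that separated the RNAi times, at 3074 to 3602 on RNAi 6 h arrays and 2613 to 2837 on RNAi 0 h arrays. It was 4053 to 4410 on control 6 h arrays and 3657 to 4444 on control 0 h arrays. Every RNAi array thus lay below every control array in this sum, and the control times overlapped. Of the 8 members tested, 2 (Dcn and Cldn5) were called higher in RNAi neurons at 6 h and 6 were not called. Dcn, whose signals are given below, made up much of the sum and of its rise in RNAi. The neuronal sum was 87075 to 92481 on control 6 h arrays, above the RNAi 6 h range, and the arms overlapped at 0 h. In a whole-culture sample, fewer cells of a type and less RNA per cell cannot be told apart. As deposited, the 18 arrays had median signals between 240.0 and 248.0. Replicates of a group correlated at 0.9933 or more across the log2 signals of all probe sets. Differences in brightness between probe sets dominate such a correlation, so it cannot show whether an array stood apart.

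After 6 h of KCl a large share of the genes in RNAi neurons had changed. The largest rises belonged to transcription factors of the immediate early class, to secreted factors and to signalling regulators, led by Fosb, Fos, Serpinb2, Emp1 and Junb. The largest falls belonged to genes of more varied function, led by Zmat1, Lrrc24, Scrn3 and Arrdc3. Of the 10933 genes tested, 1610 were called higher at 6 h and 2766 lower, which is 14.7% and 25.3% of them and 40% in either direction. An unadjusted p under 0.05 was met by 5245 genes. Most of the calls were small: 114 genes were higher and 166 lower by at least 2-fold, and the median size of a called change was 0.43 on the log2 scale. The median change over all genes tested was -0.024. The deposited arrays had nearly equal medians, so this value cannot show whether all genes shifted together. The 3 arrays at 6 h lay entirely above the 3 at 0 h for 2165 genes (19.8%) and entirely below for 3189 (29.2%), together 49% of the genes tested. With the replicate number as a block in the fit, 2066 genes (18.9%) were called higher and 3368 (30.8%) lower.

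**Figure D1:**
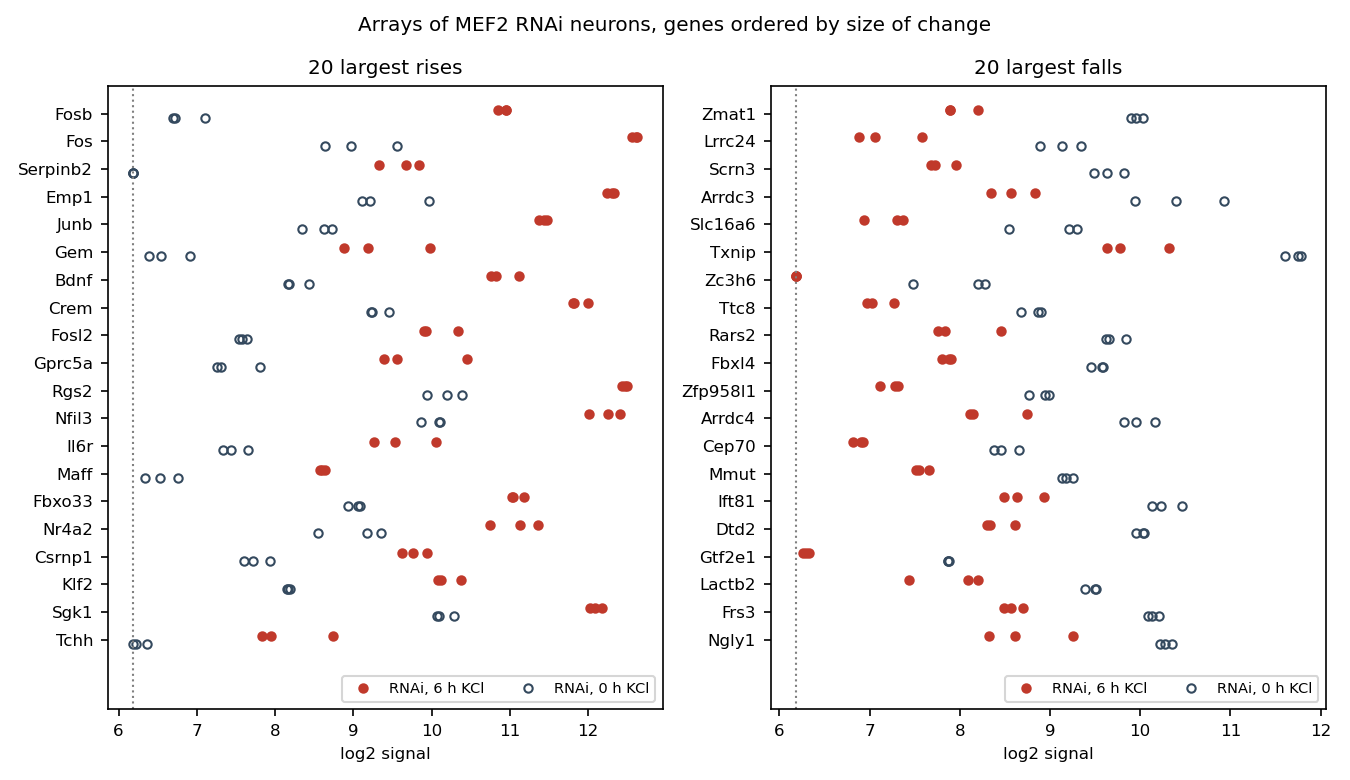
Log2 signal (horizontal axis) of the 20 genes with the largest rises (left) and the 20 with the largest falls (right) in RNAi neurons, filled points for the 3 arrays at 6 h of KCl and open points for the 3 at 0 h, with the floor as a dotted line. The rule that chose the genes required arrays that do not overlap, and in both panels the gaps between the groups exceed the spread within a group for most genes, with Serpinb2 at the floor on all 3 of the 0 h arrays and Zc3h6 at the floor on all 3 of the 6 h arrays.

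Transcription factors gave the largest rises. Fosb, an AP-1 subunit that pairs with Jun proteins, had signals of 1977, 1977 and 1849 at 6 h and 137, 104 and 106 at 0 h in RNAi neurons. Its 6 h arrays were close together and far above the 0 h arrays, a log2 change of 4.08 ± 0.19 (16.9-fold, limma adjusted p = 1.16e-09). Fos, the best known subunit of AP-1, had 6265, 6049.6 and 6341 at 6 h and 751, 397 and 499.8 at 0 h. The 0 h arrays of Fos were spread more widely than its 6 h arrays without reaching them, and the change was 3.55 ± 0.35 (adjusted p = 9.84e-07). A second, dim probe set of Fos was also called higher, by 0.20.

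Junb, a Jun protein that partners both, had 2648, 2837 and 2774 at 6 h and 396, 324 and 425 at 0 h and rose by 2.86 ± 0.11 (adjusted p = 1.43e-10). Fosl2, a further Fos family member, rose by 2.47 ± 0.20, with signals of 1289, 978 and 959 at 6 h and 186, 190.1 and 199 at 0 h. The AP-1 family did not move as one. Jun, the founding member, had 3912, 3416 and 4291 at 6 h and 3734, 3412 and 3758 at 0 h, ranges that overlapped, and it was not called (0.087 ± 0.10, adjusted p = 0.531). Its other probe sets differed, one called lower by -0.52 and one not called at 0.13.

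The bZIP factors Crem, Nfil3 and Maff rose as well. Crem, whose products include ICER, a short repressor of CREB-driven genes that is itself induced by CREB, had 3608, 3596 and 4107 at 6 h and 699, 604 and 599.9 at 0 h. The increase was 2.57 ± 0.17 (adjusted p = 3.07e-08), and all 4 of its other probe sets were called higher too, by 1.23 to 3.82. Nfil3, a bZIP repressor, rose by 2.20 ± 0.19, with signals of 4121, 5421 and 4893 at 6 h and 935, 1092 and 1099 at 0 h. Maff, a small Maf protein without an activation domain, had 379.8, 399 and 387 at 6 h and 109, 92.8 and 80.6 at 0 h (2.06 ± 0.17). In each of these the arrays of the 2 times were well apart.

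Nr4a2, an orphan nuclear receptor, had 1722, 2235 and 2638 at 6 h and 373, 579.5 and 655 at 0 h (2.05 ± 0.24, adjusted p = 5.97e-06). Its relative Nr4a1, a reported MEF2 target, had 2439, 3168 and 5573 at 6 h and 1268, 1054 and 881 at 0 h (1.73 ± 0.24, adjusted p = 2.87e-05). Both varied more between the 6 h arrays than the AP-1 genes did, and neither overlapped with its 0 h arrays. Csrnp1, a nuclear protein, and Klf2, a zinc finger factor, rose by 2.02 and 2.02. For Klf2 the 2 other probe sets were not called, at 0.13 and 0.19.

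Secreted and cell-surface proteins made up a second class of rises. Bdnf, a neurotrophin that shapes synapses, had 1726, 1806 and 2219 at 6 h and 286, 289 and 347 at 0 h in RNAi neurons. All 3 of its 6 h arrays were several times brighter than any at 0 h, and it rose by 2.64 ± 0.16 (6.23-fold, adjusted p = 1.86e-08). Its other probe set was called higher by 0.62. Serpinb2, an inhibitor of plasminogen activators, had 917, 645 and 816 at 6 h and 47.1, 37.5 and 36.9 at 0 h. All 0 h arrays were below the floor of 72.6, so its rise was at least 10.8-fold (3.43 on the log2 scale, adjusted p = 1.43e-10).

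Emp1, a membrane protein with 4 spans, had 5139, 5074 and 4862 at 6 h and 998, 593 and 553 at 0 h (2.87 ± 0.26, adjusted p = 4.73e-07), and its other probe set was called higher by 0.56. Il6r, the receptor for interleukin-6, had 615, 1064 and 742 at 6 h and 161, 174 and 202 at 0 h (2.14 ± 0.19). Gprc5a, an orphan G protein-coupled receptor, rose by 2.35 ± 0.22, although its 6 h arrays ranged widely, at 672, 755 and 1398. Tchh, which encodes trichohyalin, a structural protein of hair follicles, had 247, 427 and 228 at 6 h and 72.2, 74.5 and 82.6 at 0 h, where 1 of the 3 arrays was at the floor (1.92 ± 0.25, adjusted p = 1.87e-05). None of these overlapped between the times.

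Regulators of calcium, G protein and ubiquitin signalling formed the rest of the 20 largest rises. Gem, a small GTPase that inhibits voltage-gated calcium channels, had 472, 583 and 1009 at 6 h and 93.2, 84.1 and 120.1 at 0 h (2.74 ± 0.27, adjusted p = 1.22e-06). Rgs2, which shortens Gq signals, had 5674, 5759 and 5509.9 and 1172, 1338 and 980.2 at the same times (2.29 ± 0.17). Sgk1, a kinase of the AKT type, had 4153, 4630.2 and 4366 at 6 h and 1074, 1244 and 1093 at 0 h (1.95 ± 0.18), and Fbxo33, a substrate receptor of a ubiquitin ligase, rose by 2.06 ± 0.13. The arrays of Rgs2 and Sgk1 were tightly grouped at each time, whereas 1 of the 3 Gem arrays at 6 h was well above the others.

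The bases around transcription start sites were read for these genes, because CREB, AP-1, SRF and MEF2 each have a known binding sequence. Windows of 300 bases, 250 before the start and 50 after it, came from RefSeq on build GRCr8, and 15 of the 20 genes with the largest rises and 16 of the 20 with the largest falls had one. The letters searched, on both strands, were TGACGTCA (the CRE, bound by CREB), TGANTCA (bound by AP-1) and CACGTG (an E-box), with the CArG box of SRF and the MEF2 site searched by their usual consensus. All are palindromic in form, so both strands give the same matches. The CRE was present in 2 of the 15 genes that rose (Crem and Maff), against 3.45% of the genes tested, and in 0 of the 16 that fell. The AP-1 letters were present in 5 of the 15 (Bdnf, Emp1, Serpinb2, Sgk1 and Tchh), against 5.31% of the genes tested, and in 0 of the 16. The E-box was present in 3 of the 15 and 1 of the 16, against 10.2% of the genes tested. Genes with several start sites have more windows: the 15 genes had 24, and the AP-1 letters were in 20.8% of these, against 4.94% of the windows of the genes tested. Neither the MEF2 site nor the CArG box was present in the windows of these 15 and 16 genes, against 1.61% and 1.46% of the genes tested. With shares this low, an absence in so few genes says little. A match describes letters in a window and does not show binding.

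The windows of 6 genes were chosen after the search because they bear on the genes described: Crem and Maff for the CRE, Emp1 and Serpinb2 for AP-1, Hdac5 for a MEF2 site and Arrdc4 for the E-box. Position is the distance from the start site to the first matched base. Each is written 5′ to 3′ on the strand of the gene, with the matched letters in capitals.
Crem, plus strand, chr17:58985240-58985539, a CRE that starts 35 bases before the start site and another after it: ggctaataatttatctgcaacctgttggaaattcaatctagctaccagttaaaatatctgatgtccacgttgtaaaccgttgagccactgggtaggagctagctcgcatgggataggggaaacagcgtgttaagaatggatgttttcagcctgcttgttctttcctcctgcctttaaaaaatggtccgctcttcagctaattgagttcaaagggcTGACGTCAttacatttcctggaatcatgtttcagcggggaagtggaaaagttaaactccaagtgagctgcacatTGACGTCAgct
Maff, plus strand, chr7:112792537-112792836, an E-box 213 and a CRE 51 bases before the start site: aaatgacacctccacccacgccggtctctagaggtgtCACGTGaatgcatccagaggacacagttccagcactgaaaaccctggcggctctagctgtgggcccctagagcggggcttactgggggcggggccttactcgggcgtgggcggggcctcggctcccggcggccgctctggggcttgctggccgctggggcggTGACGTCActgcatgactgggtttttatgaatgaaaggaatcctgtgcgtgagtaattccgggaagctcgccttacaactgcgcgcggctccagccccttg
Emp1, plus strand, chr4:169943980-169944279, AP-1 letters 212 and 88 bases before the start site: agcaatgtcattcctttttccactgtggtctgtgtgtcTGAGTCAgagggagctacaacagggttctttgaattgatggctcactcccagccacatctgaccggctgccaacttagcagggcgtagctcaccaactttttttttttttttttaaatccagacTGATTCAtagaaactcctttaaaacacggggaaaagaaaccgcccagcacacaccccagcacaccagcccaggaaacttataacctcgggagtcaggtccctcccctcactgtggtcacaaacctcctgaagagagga
Serpinb2, plus strand, chr13:24055771-24056070, AP-1 letters 189 bases before the start site: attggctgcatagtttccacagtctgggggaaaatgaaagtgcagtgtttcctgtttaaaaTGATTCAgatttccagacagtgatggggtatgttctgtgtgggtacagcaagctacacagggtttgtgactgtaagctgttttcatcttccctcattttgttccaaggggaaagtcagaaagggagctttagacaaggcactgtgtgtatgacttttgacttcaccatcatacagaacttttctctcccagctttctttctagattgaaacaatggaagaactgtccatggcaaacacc
Hdac5, minus strand, chr10:87688005-87688304, a MEF2 site 52 and an E-box 29 bases before the start site: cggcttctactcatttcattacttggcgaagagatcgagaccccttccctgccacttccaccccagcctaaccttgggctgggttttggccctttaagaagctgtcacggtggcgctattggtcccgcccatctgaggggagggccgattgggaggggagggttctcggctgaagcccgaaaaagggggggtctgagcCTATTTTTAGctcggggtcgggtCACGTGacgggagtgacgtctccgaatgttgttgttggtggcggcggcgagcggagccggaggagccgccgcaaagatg
Arrdc4, minus strand, chr1:131793376-131793675, an E-box 177 bases before the start site: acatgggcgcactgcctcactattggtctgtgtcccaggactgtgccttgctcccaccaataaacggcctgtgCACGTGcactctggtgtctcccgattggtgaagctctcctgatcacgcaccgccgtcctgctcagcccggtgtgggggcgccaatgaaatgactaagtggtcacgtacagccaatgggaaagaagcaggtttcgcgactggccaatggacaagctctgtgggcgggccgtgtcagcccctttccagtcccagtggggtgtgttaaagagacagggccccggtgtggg

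Among the falls, the arrestin-domain and thioredoxin-interacting genes form a family, and 3 of its 5 members tested were lower at 6 h, with a median of -1.64 over the 5. Txnip, which binds thioredoxin and restrains glucose uptake, had 1281, 875 and 792 at 6 h and 3433, 3115 and 3512 at 0 h (-1.80 ± 0.24, adjusted p = 2.34e-05). Arrdc3, an adaptor for ubiquitination of membrane receptors, had 456, 379 and 326 at 6 h and 1950.2, 982 and 1353 at 0 h (-1.84 ± 0.23). Arrdc4, the closest relative of Txnip in sequence and regulation, had 429.9, 284 and 277 at 6 h and 995, 903 and 1151 at 0 h (-1.64 ± 0.13, adjusted p = 1.71e-07). In all 3 the highest 6 h array was well below the lowest 0 h array. Arrdc1 and Arrdc2 were not called, at -0.15 and -0.063, although Arrdc1 was with the replicate number as a block (adjusted p = 0.0351).

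Among the other falls, grouped here by known role after the values were seen, were zinc finger genes and a subunit each of TFIIE and RNA polymerase II. Zmat1, a zinc finger protein, had the largest fall among genes at their brightest probe set, with 237, 295 and 237 at 6 h and 952, 1046 and 989 at 0 h (-1.96 ± 0.12, adjusted p = 1.68e-08). Gtf2e1, a subunit of the general transcription factor TFIIE, had 78.2, 76.6 and 80.0 at 6 h, just above the floor, and 233, 234 and 236 at 0 h (-1.58 ± 0.11, adjusted p = 5.51e-08). Zc3h6, a CCCH zinc finger protein, had 56.3, 48.6 and 67.7 at 6 h, all under the floor, and 178, 309 and 293 at 0 h, a level that fell by at least 1.80 on the log2 scale. Polr2a, the largest subunit of RNA polymerase II, had 881, 785 and 582 at 6 h and 1772, 1694 and 1593 at 0 h (-1.19 ± 0.16, adjusted p = 2.04e-05), while 8 of the 11 genes tested in the housekeeping list were not called and 2 were higher.

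Several genes of mitochondria and of cilia stood among the 20 largest falls. Rars2, the mitochondrial arginyl-tRNA synthetase, had 352, 217 and 229 at 6 h and 915, 805 and 787 at 0 h (-1.68 ± 0.16). Mmut, the mitochondrial methylmalonyl-CoA mutase, had 202, 182 and 187 and 563, 579 and 609 at the same times (-1.62 ± 0.15), and its 2 other probe sets were called lower as well. Fbxl4, a mitochondrial F-box protein, and Lactb2, a mitochondrial endoribonuclease, fell by 1.68 and 1.56 on the log2 scale. Of genes used in building cilia, Ttc8, a part of the BBSome, had 154, 126 and 129.9 at 6 h and 409, 467 and 477 at 0 h (-1.73 ± 0.11), and Ift81, a carrier of tubulin in the intraflagellar transport complex, fell by 1.59. These groupings were made after the values were seen and are descriptive.

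The other large falls were spread over many functions. Lrrc24, a leucine-rich repeat membrane protein, had 118, 134 and 192 at 6 h and 473, 562 and 650.1 at 0 h (-1.95 ± 0.18). Slc16a6, of the monocarboxylate transporter family, fell by 1.81, and by 2.67 at its other probe set. Frs3, an adaptor of FGF and neurotrophin receptors, and Ngly1, the enzyme that removes N-linked sugars from misfolded proteins, both fell by 1.55. Dtd2, which clears wrongly charged tRNAs, fell by 1.59, but its other probe set was not called (-0.20). Scrn3, Zfp958l1 and Cep70 fell by 1.86, 1.66 and 1.62.

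The arrays at 1 h show which of these changes were already present early in the same arm. At 1 h against 0 h, 135 genes were called higher and 289 lower in RNAi neurons, 3.88% of those tested. With the replicate number as a block these counts were 216 (1.98%) and 688 (6.29%), and after quantile normalization 164 and 207. Leaving out RNAi 1 h replicate 2 gave 85 and 145, RNAi 1 h replicate 3 gave 84 and 136, RNAi 0 h replicate 2 gave 105 and 171, and RNAi 0 h replicate 3 gave 103 and 150. At 6 h against 1 h, 1520 were called higher and 1900 lower, 31.3% of those tested. The 1 h arrays enter both of these comparisons, so the values are given side by side without a test between them.

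Part of the early wave was over by 6 h. Arc, a cytoskeletal protein that drives removal of AMPA receptors from synapses, had 314, 277 and 327 at 0 h, 2130.4, 1526 and 2026 at 1 h and 282, 308 and 329 at 6 h in RNAi neurons. It was brighter only at 1 h, with 2.62 at 1 h against 0 h, -2.62 at 6 h against 1 h, and no call at 6 h against 0 h. Egr1, a zinc finger factor, had 2935, 1473 and 2106 at 0 h, 11766, 10890 and 11520 at 1 h and 3333, 1991 and 1875 at 6 h. Its 6 h and 0 h arrays overlapped (0.15 ± 0.29, adjusted p = 0.716), and it was lower at 6 h than at 1 h (-2.30 ± 0.29).

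Other early genes declined after 1 h and were still higher at 6 h than at 0 h. Fosb had 6075, 6365 and 7236 at 1 h, which put its 6 h level at -1.76 relative to 1 h. Junb was -1.42, Nr4a1 -1.38, Egr4 -2.10 and Ier2, a small nuclear protein, -1.62 on the same log2 comparison, all called lower than at 1 h. Crem, Gem and Fosl2 were not called between 1 h and 6 h (0.36, 0.45 and -0.0066), having been called higher at 1 h by 2.21, 2.28 and 2.48. Txnip had a similar course in the other direction, with 1425, 733 and 799 at 1 h, a log2 change of -1.83 at 1 h and a further 0.029 to 6 h.

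Another set rose after the first hour. Serpinb2 was under the floor on all 3 arrays at 1 h, as at 0 h, and Emp1, Il6r and Tchh were not called at 1 h (-0.082, -0.23 and -0.061). Mlf1, a protein first known from myeloid leukaemia, had 545, 525 and 543 at 6 h and 111, 140.5 and 134 at 1 h (2.07 ± 0.31, adjusted p = 0.000121). Ccn2, the matrix protein connective tissue growth factor, and Opn3, an opsin found in brain, were higher at 6 h than at 1 h by 1.80 and 1.79, with 1 h changes of 0.013 and 0.044 that were not called. Bdnf rose in both steps, by 0.86 to 1 h and a further 1.78 to 6 h.

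Homer1 showed how much the probe set matters. It encodes a postsynaptic scaffold and, in a short activity-induced form known as Homer1a, a protein that displaces that scaffold. The probe set with the highest mean signal was not called at 6 h (2207, 2482 and 2349 in RNAi neurons at 6 h and 2062, 2156 and 2335 at 0 h, 0.10 ± 0.068). One of its other probe sets had 223, 217 and 270 at 0 h, 853, 1621 and 1215 at 1 h and 1229, 1566 and 1207 at 6 h, an increase of 2.49 at 6 h that was already 2.33 at 1 h. Another had 683, 615 and 666, 655, 679.5 and 701 and 3726, 3784 and 3526 at the same times, an increase of 2.49 at 6 h with 0.053 at 1 h. The first of these was thus bright from 1 h on and the other only at 6 h, and the 2 remaining probe sets were not called. Which transcript each probe set reads was not determined here.

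**Figure D2:**
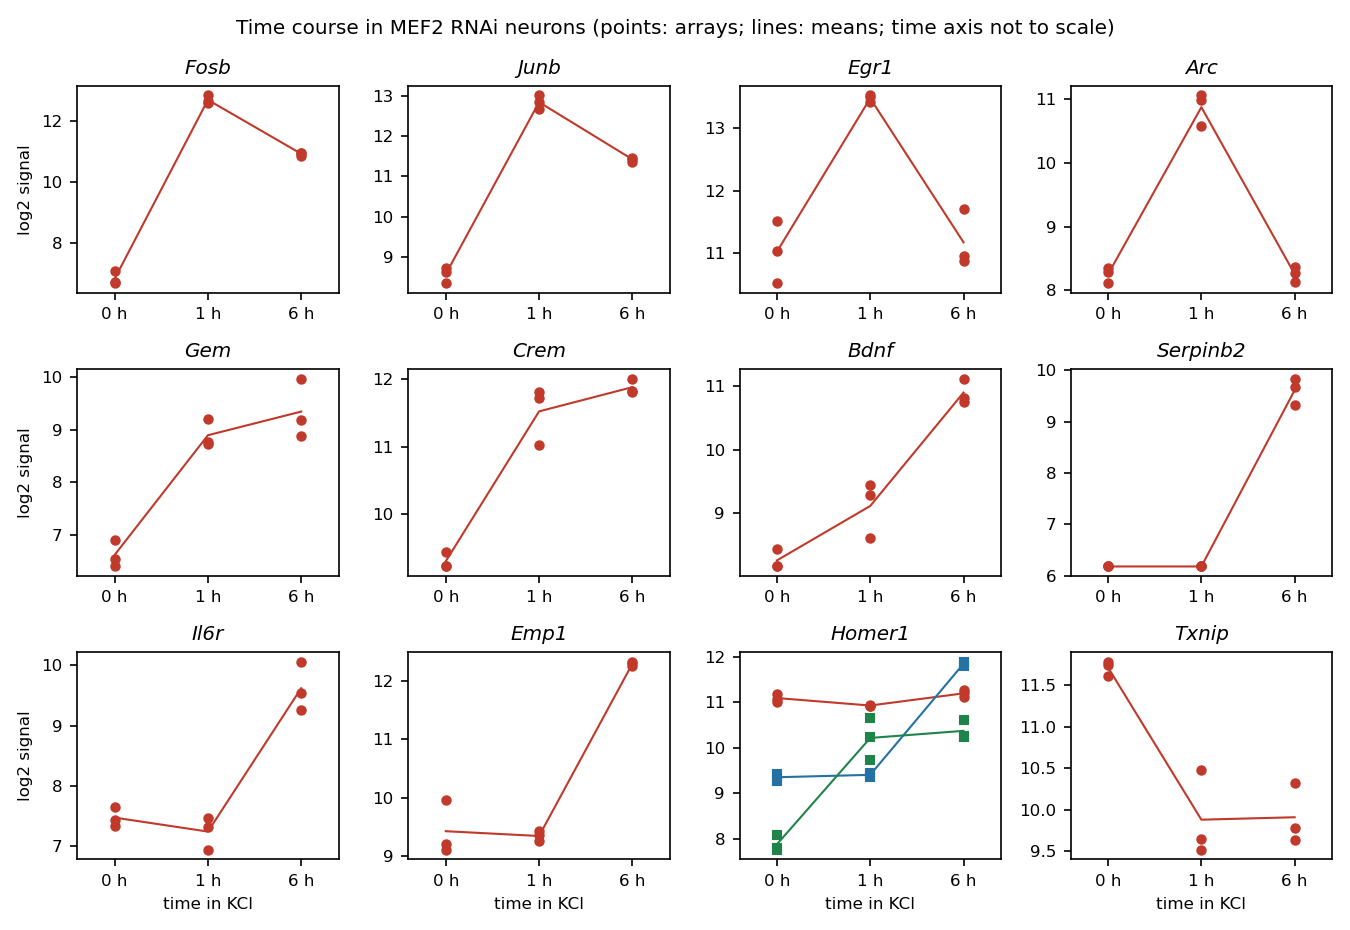
Log2 signal in RNAi neurons at 0, 1 and 6 h of KCl for 12 genes, with points for the 3 arrays of each time and lines through their means. Arc and Egr1 are back near their 0 h level at 6 h, Gem and Crem hold their 1 h level, and Serpinb2, Il6r and Emp1 move only after 1 h. In the Homer1 panel red is the probe set with the highest mean signal, blue the one bright only at 6 h and green the one bright from 1 h on.

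**Figure D3:**
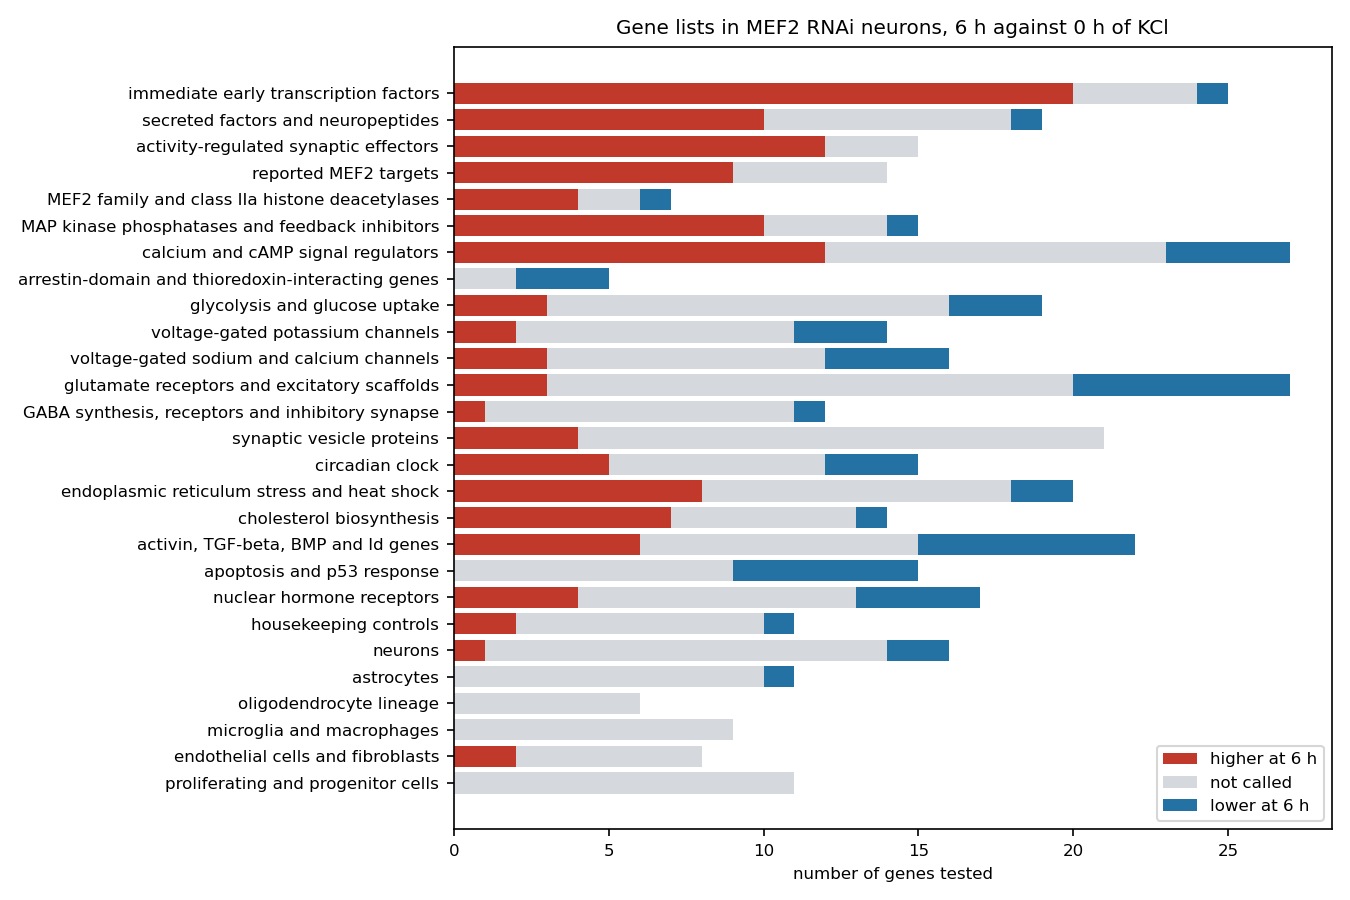
Number of genes tested (horizontal axis) in each of 27 gene lists, split into those called higher (red), not called (grey) and called lower (blue) at 6 h against 0 h in RNAi neurons. Immediate early transcription factors have 20 of 25 called higher. The arrestin-domain list has 3 of 5 and the apoptosis list 6 of 15 called lower. Over all genes tested, 14.7% were called higher and 25.3% lower.

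Gene lists were read against the background of 14.7% called higher and 25.3% called lower, and against the median change of -0.024 over all genes tested. Of 25 immediate early transcription factors tested, 20 were called higher and 1 lower, with a median change of 1.21. Of 15 MAP kinase phosphatases and feedback inhibitors, which switch off the ERK, JNK and cytokine pathways, 10 were called higher and 1 lower, with a median of 0.68. Dusp1, a nuclear MAP kinase phosphatase, had 4331, 4530.5 and 4731 at 6 h and 1239.9, 1462 and 1413 at 0 h (1.73 ± 0.10, adjusted p = 9.11e-09). Dusp5, its ERK-directed relative, rose by 1.14 ± 0.10, and Nfkbia, the inhibitor of NF-kB, by 0.81 ± 0.095. Dusp2 went the other way, with 391, 376 and 319.8 at 6 h and 774, 816 and 784 at 0 h (-1.13 ± 0.12, adjusted p = 2.79e-06).

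Of 19 secreted factors and neuropeptides, 10 were called higher and 1 lower, with a median of 0.56. Vgf, a precursor of secreted peptides, had 7322, 8273 and 8489 at 6 h and 3065, 2743 and 2231 at 0 h (1.59 ± 0.17, adjusted p = 3.08e-06). Nrn1, which promotes neurite growth, Scg2, a granin of dense-core vesicles, and Nptx1, a pentraxin that clusters AMPA receptors, rose by 1.05, 1.03 and 0.78. Of 15 activity-regulated synaptic effectors, 12 were called higher and 0 lower, with a median of 0.56. Beside Rgs2 and Sgk1, Gadd45g, which takes part in DNA demethylation and stress signalling, had 1445, 1289.5 and 1158 at 6 h and 546, 551 and 575 at 0 h (1.21 ± 0.15), and Gadd45b rose by 1.29 ± 0.16. In both lists the members named had no overlap between the times.

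Of 14 genes reported in the literature as MEF2 targets, 9 were called higher and 0 lower, with a median of 0.53. In the control arm 13 of the 14 were called higher, with a median of 0.93, where the background was 16.1% higher. The interaction of shRNA and KCl tests whether the 6 h change differs between the arms. It called 0 of the 14 at the brightest probe sets, and 13 genes of all those tested (900 at an unadjusted p under 0.05). The median difference over the 14, RNAi minus control, was -0.30, against -0.00022 over all genes tested. It was -0.25 over the immediate early factors and -0.22 over the MAP kinase phosphatases and feedback inhibitors. Over the synaptic effectors it was -0.070 and over the secreted factors 0.031. These medians were not tested against each other. With the replicate block the interaction was called at another probe set of Bdnf and of Homer1 (adjusted p = 0.0275 and 0.0174). Both had the smaller rise in RNAi. For Homer1 the RNAi 0 h arrays there (683, 615 and 666) were above those of control (368, 434 and 335). The 6 h arrays of the arms overlapped there, at 3726.5, 3784 and 3526 in RNAi and 4504, 3836 and 3592 in control. The list shares Nr4a1, Klf2, Klf4 and Jun with the immediate early factors, Bdnf with the secreted factors and Arc and Homer1 with the synaptic effectors. Pcdh10, a protocadherin that takes part in MEF2-driven synapse removal, had 1157, 807 and 1182 at 6 h and 549, 443 and 498 at 0 h (1.06 ± 0.13). Klf4, a zinc finger factor, rose by 1.21 ± 0.14. Kcna1, a potassium channel subunit, had 594, 678 and 872 at 6 h and 612, 610.0 and 649.6 at 0 h and was not called (0.18 ± 0.19).

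Of 7 genes for MEF2 proteins and class IIa histone deacetylases, 4 were called higher and 1 lower. Hdac5, a deacetylase that leaves the nucleus when calcium rises and whose promoter window holds the MEF2 site shown above, had 2588, 2853 and 2693 at 6 h and 1244, 1420 and 1282 at 0 h (1.04 ± 0.092, adjusted p = 3.59e-07). Mef2c had 753, 832 and 1006 at 6 h and 509.7, 518 and 666 at 0 h (0.61 ± 0.13, adjusted p = 0.00143), and Mef2d had 337, 387 and 383 and 264, 266 and 298 (0.42 ± 0.077). Both were above their 0 h arrays without overlap, but the other probe set of each was not called (0.66 for Mef2c and 0.15 for Mef2d). With the replicate block that of Mef2c was called higher (adjusted p = 0.000104). Hdac4 rose by 0.35 ± 0.14 (adjusted p = 0.0486), a call lost without RNAi 6 h replicate 2 or 3 or RNAi 0 h replicate 1 or 2 (adjusted p = 0.0530, 0.210, 0.0936 and 0.151). Mef2a fell by 0.32 (adjusted p = 0.0135), and its 3 other probe sets, at -0.31, -0.082 and 0.10, were not called. The Mef2a call was lost without RNAi 6 h replicate 1 or replicate 3 (adjusted p = 0.0582 and 0.0690). Its promoter window also held a MEF2 site, 40 bases before the start site. The part of the sites of Hdac5 and Mef2a in these changes was not tested.

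Ion channels and receptors moved in both directions. Of 14 voltage-gated potassium channel genes, 2 were called higher and 3 lower. Of 16 voltage-gated sodium and calcium channel genes, 3 were called higher and 4 lower, shares near the background. Kcnab1, an auxiliary potassium channel subunit, had 484, 540.4 and 589.8 at 6 h and 882, 914 and 1328 at 0 h (-0.93 ± 0.14), but its other probe set was not called (-0.10), and the same holds for Kcna2 (-0.74, and 0.14 at the other) and Kcnq5 (-0.46 and 0.14). Kcnip4, which binds A-type potassium channels, and Kcnd3, such a channel, rose by 0.57 and 0.43. The call of Kcnd3 was lost without RNAi 6 h replicate 2 or RNAi 0 h replicate 1 (adjusted p = 0.0785 and 0.0595).

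Cacnb2, an auxiliary subunit of L-type calcium channels, had 820.0, 1069 and 1070.5 at 6 h and 505, 483 and 590.2 at 0 h (0.90 ± 0.11), while Cacna1d, an L-type pore subunit, fell by 0.80 and Scn2b, a sodium channel subunit, by 0.83. Cacna1b, the N-type pore subunit, had 897, 1168 and 1068 at 6 h and 1942, 2112 and 2084 at 0 h (-0.98 ± 0.091), yet its other probe set was called higher (0.31).

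Of 27 glutamate receptor and excitatory scaffold genes, 3 were called higher and 7 lower, with a median of -0.11. With the replicate block the counts were 5 and 8, where 18.9% of all genes tested were called higher and 30.8% lower. Homer3, a postsynaptic scaffold, had 1086, 1091 and 1243 at 6 h and 617, 689 and 713 at 0 h (0.76 ± 0.10), and Nlgn1, a postsynaptic adhesion molecule of excitatory synapses, had 577, 669 and 716 and 825, 1022 and 1287 (-0.66 ± 0.14). Dlg3, a scaffold that binds NMDA receptors, fell by 0.64, and by 0.58 at another probe set, but was not called at a further one (-0.26). Grik4, a kainate receptor subunit, fell by 0.39. Of 12 genes for GABA synthesis and inhibitory synapses, 1 was called higher and 1 lower, and with the block 3 and 1. Gad1, which makes GABA, had 2049.7, 1704 and 1788 at 6 h and 1262, 1096 and 1169 at 0 h (0.65 ± 0.14), and Gphn, the scaffold of inhibitory synapses, fell by 0.23, a call lost without RNAi 6 h replicate 1 or RNAi 0 h replicate 3 (adjusted p = 0.0660 and 0.0724). Of 21 synaptic vesicle genes, 4 were called higher and 0 lower, with 2 lower under the block, and Slc17a6, a vesicular glutamate transporter, rose by 0.60 ± 0.16.

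Regulators of calcium and cAMP gave 12 higher and 4 lower of 27 tested. Beside Gem and Rgs2, Rcan2, an inhibitor of calcineurin, had 909, 998 and 909.7 at 6 h and 405, 335 and 413 at 0 h (1.29 ± 0.14, adjusted p = 2.11e-06). Camkk1, which activates other calcium-dependent kinases, had 443, 478 and 481 and 672, 789 and 839.5 (-0.71 ± 0.082). Pde4d, which breaks down cAMP, rose by 0.61 ± 0.074, but its other probe set was not called (0.21).

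Of 15 circadian clock genes, 5 were called higher and 3 lower. Per1, a clock repressor with CREB-driven induction, had 1201, 1270.2 and 1371 at 6 h and 489, 449 and 475 at 0 h (1.44 ± 0.13, adjusted p = 6.09e-07), and the clock repressors Cry1 and Cry2 both rose by 0.71. Bhlhe41, a further repressor of the clock, had 502, 421 and 499 at 6 h and 933, 774 and 948 at 0 h (-0.90 ± 0.14). Of 17 nuclear hormone receptors, 4 were called higher and 4 lower. Nr3c2, the mineralocorticoid receptor, which is abundant in hippocampus, had 339.8, 399 and 555 at 6 h and 1024, 930.4 and 1123 at 0 h (-1.28 ± 0.18, adjusted p = 3.19e-05).

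Of 14 cholesterol synthesis genes, 7 were called higher and 1 lower, with a median of 0.27. Insig1, which holds back the sterol-sensing factor SREBP, had 5401, 5663 and 4386 at 6 h and 3182, 3249.9 and 2073 at 0 h (0.88 ± 0.16). Sc5d, a late enzyme of the pathway, rose by 1.03 ± 0.094, although 1 of its 2 other probe sets was not called (0.11), and Cyp51, which removes a methyl group from lanosterol, and Idi1, an early enzyme, rose by 0.53 and 0.50. Of 20 endoplasmic reticulum stress and heat shock genes, 8 were called higher and 2 lower. Chac1, which degrades glutathione, and Herpud1, a part of the degradation machinery of the endoplasmic reticulum, rose by 1.01 and 0.85, and Atf4, the main factor of the integrated stress response, and Asns, its target for asparagine synthesis, rose by 0.53 and 0.52.

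Of 19 glycolysis and glucose uptake genes, 3 were called higher and 3 lower, with a median of 0.021, in neurons where Txnip fell. Slc2a3, the neuronal glucose transporter, had 1914, 2501 and 2575 at 6 h and 1222, 1559.9 and 1812 at 0 h (0.61 ± 0.17), arrays that came close without overlapping. Pgam1 and Ldha, a mid-pathway enzyme and the maker of lactate, rose by 0.43 and 0.25. Pdk1, a kinase that inhibits pyruvate dehydrogenase, fell by 0.56 but was not called at its other probe set (0.28), which the replicate block called higher (adjusted p = 0.00478). Pfkm, a rate-setting enzyme, fell by 0.32 with 2 other probe sets not called (0.02 and -0.23).

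Of 22 activin, TGF-beta, BMP and Id genes, 6 were called higher and 7 lower. The ligand subunit Inhbb had 3312, 4234 and 3786 at 6 h and 1779, 1523 and 1794 at 0 h (1.15 ± 0.12, adjusted p = 2.89e-06), and the ligands Tgfb3 and Bmp3 rose by 0.90 and 0.56. Nog, a secreted BMP antagonist, had 409, 393 and 394 and 649, 654 and 845 (-0.83 ± 0.12), and Skil, a repressor of SMAD-driven transcription, fell by 0.48. Of 15 apoptosis and p53 response genes, 0 were called higher and 6 lower, with a median of -0.13. With the block the counts were 2 and 6, where 18.9% of all genes tested were called higher and 30.8% lower. Bbc3, the BH3-only protein PUMA, had 569, 528 and 646 at 6 h and 852, 804 and 869 at 0 h (-0.54 ± 0.11), Casp9, the initiator caspase of the mitochondrial pathway, fell by 0.60. Bcl2l11, the BH3-only protein BIM, fell by 0.27, a call lost without RNAi 6 h replicate 2 or 3 or RNAi 0 h replicate 2 or 3 (adjusted p = 0.0553, 0.197, 0.0593 and 0.152), and without RNAi 6 h replicate 3 its change was -0.18.

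Few cell type markers were called. Of 16 neuronal markers, 1 was called higher (Gad1) and 2 lower (Nefh, a neurofilament subunit, by -0.71, and Tubb3, neuronal tubulin, by -0.34), with 4 lower under the block. Of 11 astrocyte markers, 1 was called lower (Gfap, -0.27), and with the block Glul was also called higher, as both its other probe sets were without it. None of 6 oligodendrocyte, 9 microglial and 11 proliferation markers tested was called, against 1 oligodendrocyte marker lower and 1 proliferation marker higher with the block. Of 8 endothelial and fibroblast markers, 2 were called higher: Dcn, a matrix proteoglycan, had 1414, 1663 and 1816 at 6 h and 945, 1148 and 1186 at 0 h (0.58 ± 0.14), and Cldn5, a tight junction protein, had 138, 149.9 and 143 and 118, 107 and 90.7 (0.46 ± 0.15). Some of these calls were lost when 1 array was left out. That of Tubb3 was lost without RNAi 6 h replicate 1 or RNAi 0 h replicate 2 (adjusted p = 0.0549 and 0.0624). Without RNAi 6 h replicate 1 or 2 the Gfap call was lost (adjusted p = 0.111 and 0.105). It was lost too without RNAi 0 h replicate 1 or 3 (adjusted p = 0.0811 and 0.127). That of Cldn5 was lost without RNAi 6 h replicate 2 or RNAi 0 h replicate 3 (adjusted p = 0.0635 and 0.0989). The part of such cells in the other results was not tested.

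The control arm gives the response to the same treatment with control shRNAs. Its arrays are other arrays, so the arms share none. In control neurons 1759 genes were called higher and 2783 lower at 6 h, 41.5% of those tested, and 182 and 165 of them by at least 2-fold. The RNAi and control arms had 1224 rises in common, which is 76% of the RNAi rises and 69.6% of the control rises. They had 2231 falls in common, 80.7% of the RNAi falls and 80.2% of the control falls. Among the genes called higher in RNAi neurons 4 were called lower in control neurons, and among those called lower 3 were called higher. Across the 10933 genes the log2 changes of the arms correlated at 0.9056 (Pearson) and 0.8644 (Spearman), a description over genes, and genes are not replicates.

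The sizes of large changes were set side by side between the arms. Of the 182 genes called higher by at least 2-fold in control neurons, 157 (86.3%) had a smaller change in RNAi neurons, with medians of 1.02 in RNAi and 1.27 in control. Choosing genes by one arm favours a smaller value in the other, so the reverse choice is given too: of the 114 genes called higher by at least 2-fold in RNAi neurons, 68 (59.6%) still had a smaller change in RNAi than in control, with medians of 1.29 and 1.45. For falls the majority depended on the arm that chose the genes. Of the 165 falls of at least 2-fold in control neurons, 102 (61.8%) were smaller in RNAi, and of the 166 chosen in RNAi neurons, 53 (31.9%) were. These counts carry no test.

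**Figure D4:**
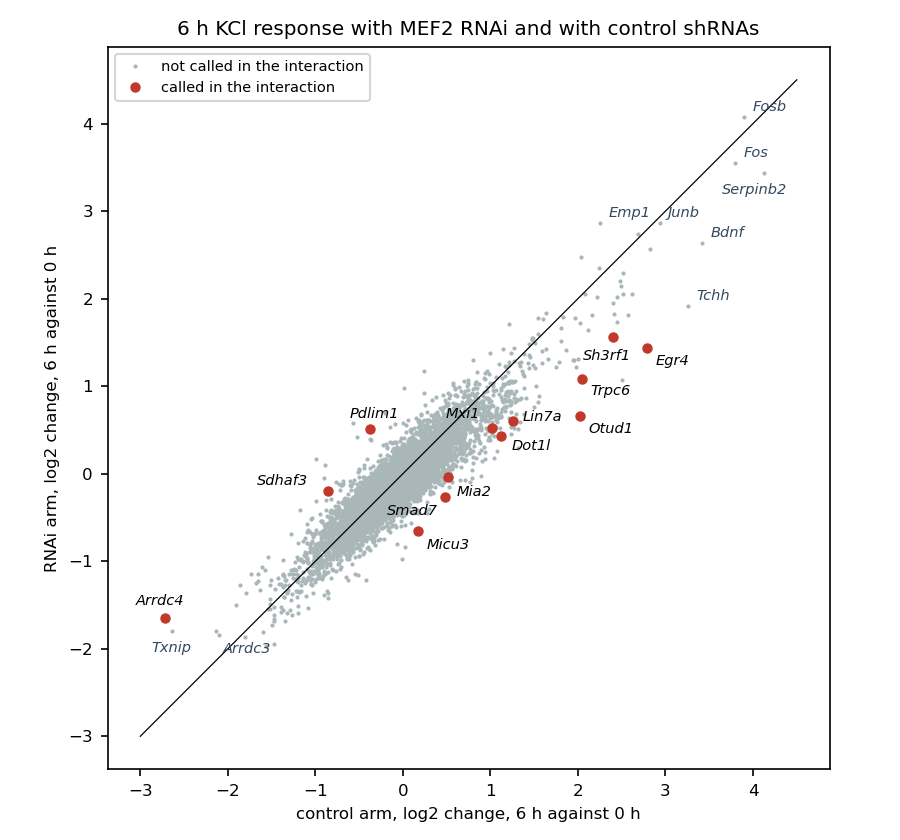
Log2 change at 6 h against 0 h of KCl in the RNAi arm (vertical axis) and the control arm (horizontal axis) for the 10933 genes tested, with the line of equal change and red points for the 13 genes called in the interaction. Most genes lie along the line, and Otud1, Egr4, Trpc6 and Sh3rf1 lie below it at the right, where the control rise was larger.

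Among the genes with the largest rises the 2 arms were close for some and apart for others. In RNAi and control neurons Fosb rose by 4.08 and 3.90, Junb by 2.86 and 2.93, Gem by 2.74 and 2.69, and Fbxo33 by 2.06 and 2.08. The 95% intervals of the differences, not adjusted for the number of genes, were -0.38 to 0.75 for Fosb, -0.40 to 0.25 for Junb, -0.77 to 0.86 for Gem and -0.40 to 0.36 for Fbxo33. Bdnf rose by 2.64 and 3.42, and its signals were 1726, 1806 and 2219 at RNAi 6 h and 3086, 2856 and 3336 at control 6 h. All RNAi 6 h arrays of Bdnf were below all control 6 h arrays, but its interaction of -0.78 ± 0.23 was not called (adjusted p = 0.264). At the other probe set of Bdnf the interaction was called only with the replicate block (adjusted p = 0.0275). Emp1 had the opposite order, 2.87 in RNAi and 2.25 in control, and its interaction was not called (0.61 ± 0.36, adjusted p = 0.711). Serpinb2 was under the floor on every 0 h array of both arms, so its rises of at least 3.43 in RNAi and 4.12 in control are bounds, and its interaction, called only with the block (adjusted p = 0.0414), compares the 6 h levels rather than measured changes. With the block the interaction was also called for Tchh (adjusted p = 0.0406, 1.92 and 3.26). It was called as well for the Homer1 probe set bright only at 6 h (adjusted p = 0.0174, 2.49 and 3.39). Neither was called without the block. At that Homer1 probe set the RNAi 0 h arrays were above the control 0 h arrays, and the 6 h arrays of the arms overlapped.

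The interaction called 13 genes at 6 h, 0.119% of those tested, 3 (0.0274%) with a positive and 10 (0.0915%) with a negative difference (RNAi change minus control change). With the replicate number as a block, which the pairing of the arrays allows, it called 40 (0.366%) and 86 (0.787%), all 13 among them. Leaving out 1 array at a time gave 0 to 4 positive and 1 to 13 negative calls. With the mean over probe sets the interaction calls of Egr4, Smad7, Dot1l, Mia2 and Mxi1 were lost (adjusted p = 0.190, 0.137, 0.0619, 0.385 and 0.151). Trpc6, a calcium-permeable channel opened by diacylglycerol, was the one called under every removal of a single array. It had 163, 181 and 147 at RNAi 6 h and 86.3, 71.5 and 65.4 at RNAi 0 h, where 2 of the 3 arrays were at the floor, against 419, 435 and 439 at control 6 h and 111, 99.2 and 102 at control 0 h. The rise was 1.08 in RNAi and 2.05 in control, a difference of -0.97 ± 0.12 (adjusted p = 0.00942). With the floor at the 30th percentile the RNAi rise was 0.60.

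Otud1, a deubiquitinating enzyme, and Egr4, an Egr family factor, had the largest differences. Otud1 had 935, 943 and 1257 at RNAi 6 h and 586, 628 and 766 at RNAi 0 h, against 2748, 2936 and 2965 at control 6 h and 765, 708 and 658 at control 0 h. The 0 h arrays of the arms overlapped and the 6 h arrays did not, with changes of 0.66 in RNAi and 2.02 in control (difference -1.36 ± 0.22, adjusted p = 0.0281). Egr4 had 599, 556 and 519 at RNAi 6 h and 242, 154 and 235 at RNAi 0 h, against 1296, 1172 and 1214 at control 6 h and 234, 160.0 and 148 at control 0 h. Its difference was -1.36 ± 0.24 (adjusted p = 0.0361).

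Sh3rf1, a scaffold and ubiquitin ligase of the JNK pathway, had 624, 489.9 and 462 at RNAi 6 h and 183, 179 and 167 at RNAi 0 h, against 1012, 945 and 987 at control 6 h and 199, 191 and 171 at control 0 h (difference -0.83 ± 0.14, adjusted p = 0.0325). Lin7a, a PDZ scaffold, Dot1l, a histone H3 lysine methyltransferase, and Mxi1, an antagonist of MYC, also rose in both arms and less in RNAi. The rises were 0.60, 0.43 and 0.52 in RNAi and 1.25, 1.12 and 1.01 in control. At the other probe set of Mxi1 they were 0.50 and 0.64. The interaction there was not called without or with the block (-0.14, adjusted p = 0.876 and 0.647). With the floor at the 30th percentile the RNAi rise of Lin7a was 0.19. Dot1l also differed at 0 h, at 636 ± 32.2 in RNAi and 479.6 ± 32.5 in control (mean ± SD of the signal, n = 3).

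Smad7 and Pdlim1 were called in opposite directions in the arms, and Micu3 and Mia2 were called in one arm only. Micu3, a regulator of mitochondrial calcium uptake, averaged 1511 ± 143 at RNAi 6 h and 2368 ± 115 at RNAi 0 h, against 1300.5 ± 112 at control 6 h and 1154 ± 141 at control 0 h. It fell in RNAi (-0.65) and was not called in control (0.18), and its RNAi 0 h arrays were the ones that stood above all others. Smad7, an inhibitor of TGF-beta signalling, fell by 0.26 in RNAi and rose by 0.48 in control. Its RNAi call was lost without RNAi 6 h replicate 1 or RNAi 0 h replicate 2 (adjusted p = 0.117 and 0.151), and without the second of these the RNAi change was -0.17. Mia2, a cargo receptor for secretion, was not called in RNAi (-0.036) and rose by 0.52 in control. Pdlim1, an actin-linked LIM protein, rose by 0.51 in RNAi and fell by 0.37 in control.

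Falls were smaller with RNAi for Arrdc4 and Sdhaf3. Arrdc4 had 429.9, 284 and 277 at RNAi 6 h and 995, 903 and 1151 at RNAi 0 h, against 112, 126 and 124 at control 6 h and 785, 782 and 812 at control 0 h. The RNAi 6 h arrays were all above the control 6 h arrays, and the changes were -1.64 in RNAi and -2.72 in control (difference 1.08 ± 0.19, adjusted p = 0.0361). Txnip had -1.80 in RNAi and -2.64 in control, and its difference was not called (0.84 ± 0.34, adjusted p = 0.507). Sdhaf3, an assembly factor of mitochondrial complex II, changed by -0.20 in RNAi and -0.86 in control. Its RNAi call was lost after quantile normalization or median centring (adjusted p = 0.0973 and 0.0668) and without RNAi 6 h replicate 1 or 2 or RNAi 0 h replicate 2 or 3 (adjusted p = 0.0812, 0.135, 0.210 and 0.0644), and without RNAi 0 h replicate 2 the change was -0.13.

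**Figure D5:**
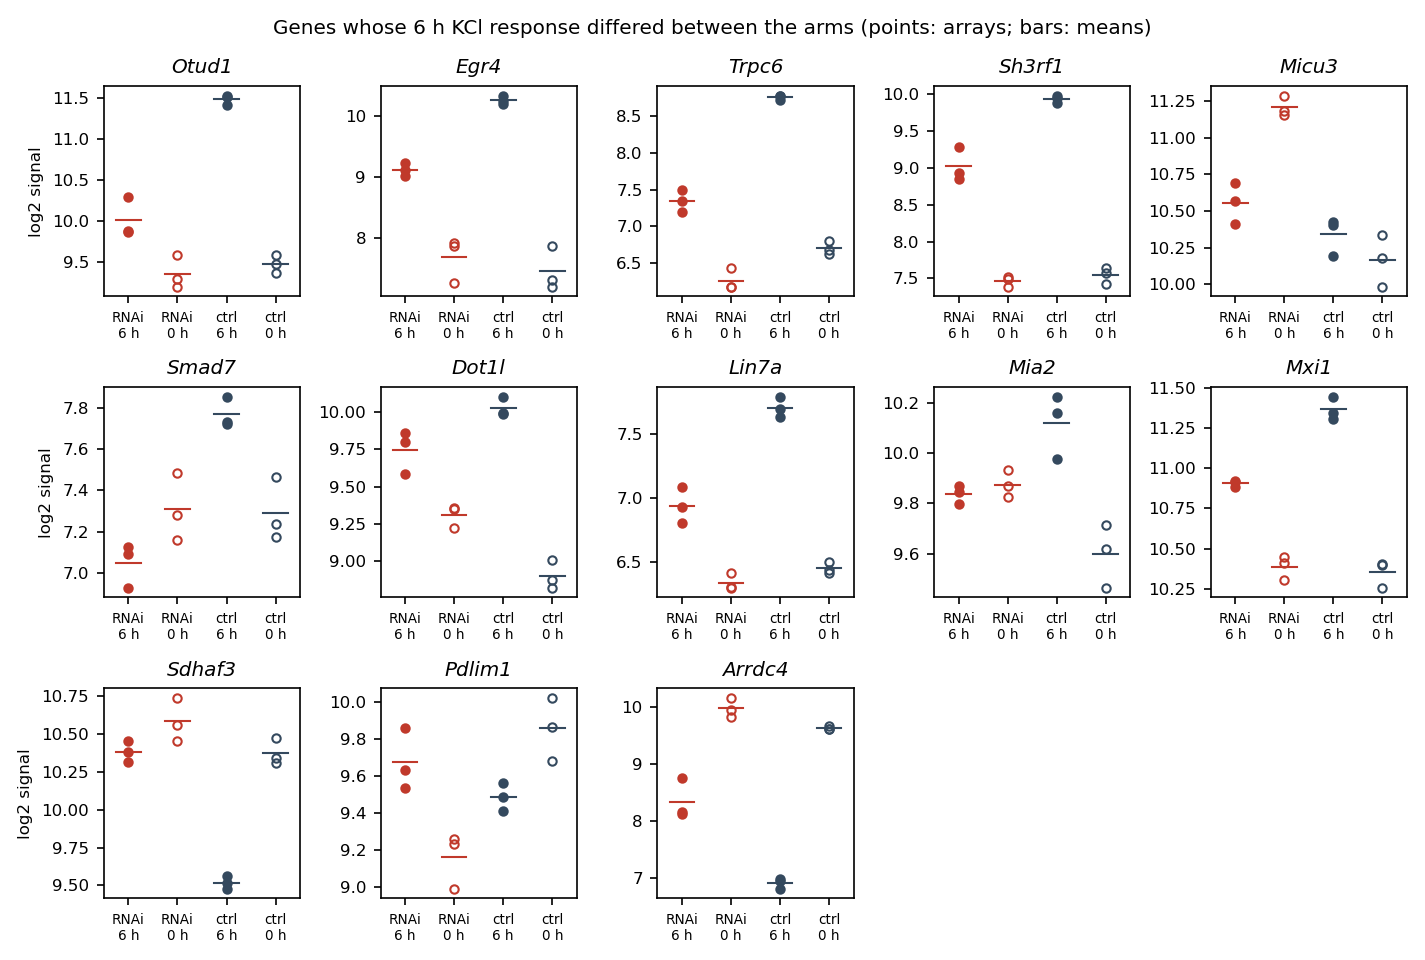
Log2 signal of the 13 genes called in the interaction, with points for the 3 arrays and bars for the mean of RNAi 6 h, RNAi 0 h, control 6 h and control 0 h (ctrl, control). Axes differ between panels. For Otud1, Egr4, Trpc6, Sh3rf1, Lin7a and Mxi1 the control 6 h arrays stand above all others, whereas for Micu3 the RNAi 0 h arrays do.

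Genes called in one arm and not in the other are not thereby shown to differ. Of the 10 largest control changes with no call in RNAi, Nppc, which encodes a natriuretic peptide, had 370.0, 437 and 447 at RNAi 6 h and 296, 393 and 337 at RNAi 0 h, against 815, 781 and 929.9 at control 6 h and 358, 405 and 267 at control 0 h. The RNAi arrays of both times overlapped, and the difference between the arms was -1.02 ± 0.23 (adjusted p = 0.107). Chodl, a membrane lectin that fell in control, changed by 0.16 in RNAi, a difference of 1.16, and Rbms1, an RNA-binding protein, changed by 0.26 and 1.08. None of the 10 was called in the interaction, and with the block Nppc (adjusted p = 0.024), Chodl (0.00614) and Rbms1 (0.0405) were. For Kcna1 (0.18 in RNAi and 1.04 in control) the difference was not called with or without the block. In the RNAi arm itself, 6 of the 10 were called with the block, namely Cav2 (adjusted p = 0.00944), Palld (0.00337), Pawr (0.0178), Sesn2 (0.0336), Nrarp (0.0228) and Fam81a (0.0495). The control fall of Fam81a was not called in RNAi at the probe set with the highest mean signal, but both its other probe sets were called lower there (-0.58 and -0.76).

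Of the 10 largest RNAi changes with no call in control, Wnt4, a secreted WNT ligand, had 146, 191 and 217 at RNAi 6 h and 376, 408 and 495 at RNAi 0 h, against 287, 339 and 414 at control 6 h and 360.1, 512 and 519 at control 0 h. It fell by 1.22 in RNAi, and the difference between the arms was -0.80 ± 0.26 (adjusted p = 0.326). Foxq1, a forkhead factor, had 503, 544 and 626 at RNAi 6 h and 215, 236 and 296 at RNAi 0 h (1.17 ± 0.17), with 0.24 in control. Gcnt2, an enzyme that branches sugar chains, rose by 0.93 in RNAi, with 0.24 in control. None of the 10 was called in the interaction, and with the block Wnt4 (adjusted p = 0.00723), Foxq1 (0.00873) and Gcnt2 (0.0298) were. In the control arm itself, 6 of the 10 were called with the block, namely Wnt4 (adjusted p = 0.000801), Acss1 (0.0017), Igfbpl1 (0.00068), Grb10 (0.00802), Pdzrn4 (0.000151) and Cracdl (0.00813). The RNAi call of Acss1 was lost after quantile normalization (adjusted p = 0.0567) and without RNAi 6 h replicate 2 or 3 or RNAi 0 h replicate 1 or 3 (adjusted p = 0.165, 0.130, 0.0891 and 0.134), and that of Igfbpl1 without RNAi 0 h replicate 2 (adjusted p = 0.0542). Cacna1h, a T-type calcium channel subunit, fell by 0.97 in RNAi and was not called at its other probe set (0.14), and C1ql3, a synaptic organizer, rose by 0.84 and was not called at its other (0.05). The RNAi call of Cacna1h was lost without RNAi 6 h replicate 1 (adjusted p = 0.0548) and that of C1ql3 without RNAi 6 h replicate 3 or RNAi 0 h replicate 1 (adjusted p = 0.105 and 0.0902).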

How the data were processed

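The series holds 18 Affymetrix arrays of rat hippocampal neurons, in 6 groups of 3 taken from the titles. The authors deposited 1 table of intensity values on a linear scale. Per the labels' protocols, RNA was extracted with a Qiagen RNeasy Micro kit and biotin-labelled cRNA was made by Affymetrix procedures. The sources used here do not state how probes were summarized or arrays normalized, and a normalization that assumes most genes stay level would hide a shift of all genes. Precision is limited by having 3 arrays in each group.

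Of 31099 probe sets, 20832 carry 1 gene symbol in GEO's platform annotation, 436 several and 9831 were not listed there, and 20764 of those with 1 symbol matched RefSeq genes of GRCr8. Intensity values under the 20th percentile of the deposited table (72.6) were set to that floor before the log2 step. The probe set with the highest mean represented each gene, and genes above the 40th percentile of their own array on at least 3 arrays were tested. limma 3.58.1 in R 4.3.3 fitted 6 group means to all 18 arrays (12 residual degrees of freedom) with two-sided p-values, adjusted by Benjamini-Hochberg. The fit was tested on simulated data. Alternatives were the replicate block, quantile normalization, median centring, other floors and filters, the mean over probe sets, a fit on the groups compared alone, an intensity trend with robust eBayes (each planned), and leaving out each array.

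Arrays with the same replicate number mostly deviated together. The correlation of deviations from group means was 0.475, 0.471 and 0.537 for the 3 pairs of RNAi 6 h and 0 h arrays. It was above 0.1 for all other same-numbered pairs examined. Control 6 h replicate 3 correlated less with control 0 h replicate 3 (0.175) than with control 0 h replicate 2 (0.369). The numbers of the labels thus go with shared deviations in the RNAi arm, and less evenly in the control arm. The main fit has no term for them, so its p-values leave the pairing out. For named genes at their brightest probe sets, blocked values are given beside the calls they change, or the gene is listed further below.

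Genes were named by rule: the 20 largest rises and falls at 6 h without overlap of arrays, the 8 largest each way against 1 h, all interaction calls, the 10 largest changes called in one arm alone, and from each list the 5 or fewer members with the lowest adjusted p, and 15 genes always given. The comparison, the gene lists and these rules were chosen with earlier results of these data known, so no list is independent support for a pattern.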

Additional observations from a re-analysis of the deposited data

Results flagged for a closer look

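For 13 genes the response to 6 h of KCl differed between the RNAi and control arms by the interaction test of limma (adjusted p under 0.05 over 10933 genes), given here as RNAi change minus control change on the log2 scale. In 10 the difference was negative: Otud1 -1.36, Egr4 -1.36, Trpc6 -0.97, Sh3rf1 -0.83, Micu3 -0.83, Smad7 -0.74, Dot1l -0.69, Lin7a -0.65, Mia2 -0.56 and Mxi1 -0.49. In 3 it was positive: Arrdc4 1.08, Pdlim1 0.88 and Sdhaf3 0.65. With the replicate block the interaction called 40 positive and 86 negative differences, these 13 genes among them. At the other probe set of Mxi1 it was not called. Trpc6 was called in all 12 fits that left out 1 array, Dot1l in 9 and Lin7a in 7, and the other 10 genes in 1 to 4 of them. Groups of 3 arrays are too small for a search for single outlying arrays.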

How the results depend on the processing

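The counts called at 6 h against 0 h and 6 h against 1 h in RNAi neurons, in control neurons and in both arms stayed within 1.5 times under each alternative. Counts at 1 h against 0 h in RNAi neurons were 216 higher and 688 lower with the replicate block and 87 and 175 in a fit of those groups alone. The interaction called 40 higher and 86 lower with the replicate block, 0 and 2 in a fit of the 4 groups alone, 6 higher with no filter on dim genes and 6 lower with the mean of probe sets. Leaving out 1 array at a time gave 1344 to 1615 higher and 2383 to 2775 lower for RNAi 6 h against 0 h, 1220 to 1319 and 1548 to 1812 against 1 h, 84 to 141 and 136 to 250 for 1 h against 0 h, 1455 to 1733 and 2417 to 2544 in control neurons, 0 to 4 and 1 to 13 for the interaction, and 1080 to 1208 and 2010 to 2250 in both arms. The interaction called 10 lower genes with all arrays, 6 without RNAi 6 h replicate 2 or RNAi 0 h replicate 1, 5 without RNAi 6 h replicate 1, 4 without RNAi 6 h replicate 3, RNAi 0 h replicate 2 or control 6 h replicate 2, 2 without RNAi 0 h replicate 3 or control 0 h replicate 2, and 1 without replicate 3 of control 6 h or of control 0 h. Its 3 higher genes became 1 without RNAi 6 h replicate 3 and 0 without RNAi 0 h replicate 1 or 3, any control 6 h array or control 0 h replicate 2. Fits without an array or on fewer groups rest on fewer samples, and the cause of the other changes was not tested. With 3 arrays in each group and a floor on dim signals, small differences between the arms may go uncalled. Of 196 named genes, 149 were called at 6 h against 0 h, 129 of them under every alternative. In the 6 h against 0 h and interaction tests the block changed no call of a named gene at its brightest probe set other than those given beside their values and, at 6 h against 0 h, those of Cnp, Cplx2, Dcx, Elavl3, Gabrb1, Glul, Lum and Pax6 and, in the interaction, those of Bid, Elavl3, Herpud1 and Pde4d. In the blocked interaction, Herpud1 changed by 0.85 in RNAi and 1.33 in control (adjusted p = 0.0137). Pde4d changed by 0.61 and 0.17 (adjusted p = 0.0298), Bid by -0.305 and -0.652 (0.0365) and Elavl3 by -0.179 and 0.148 (0.0405). No called change of a named gene turned its sign under the alternatives run. Other probe sets also differed in call for Bid, Mbp and Vamp1.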

Other observations

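Atf3, a stress-induced bZIP factor of the CREB family, was singled out after its values were seen. It had signals of 969, 1100.7 and 1203 at RNAi 6 h and 453, 410 and 740.04 at RNAi 0 h, against 1859, 2262 and 2397 at control 6 h and 405, 374 and 366 at control 0 h. The arrays of the arms did not overlap at 6 h. It rose by 1.07 ± 0.20 in RNAi and 2.50 ± 0.20 in control. The difference of -1.43 ± 0.28 was not called by limma (adjusted p = 0.0820) and was called with the replicate block (adjusted p = 0.00614).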
